A study of Zea mays with 24 samples.

Results

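The cortex and the endodermis of the maize root tip were compared by RNA sequencing, in 3 libraries of each, 6 of the 24 libraries of the series. The members were taken from the library titles alone. Both layers came from root tips of plants aged 7 days after germination that were digested to protoplasts, cells freed of their walls, and passed through a cell sorter. The cortex libraries were made from wild-type B73 protoplasts that were stained for 15 min with fluorescent dyes and sorted as the cortical layer. The endodermis libraries were made from a ZmSCR::RFP line in a B73/Hi-II background, sorted on the red fluorescence of a reporter named for SCARECROW. Further libraries, 3 per group, gave levels outside the ground tissue: dye-sorted epidermis and stele of wild-type B73, quiescent center sorted from a ZmWOX5::RFP line in B73/Hi-II, dissected root cap of wild-type B73, and unsorted protoplasts and intact root tips of wild-type B73, both without root cap. Because the cortex was sorted by dye from B73 and the endodermis by reporter from B73/Hi-II, sorting method, line and layer cannot be told apart in the direct comparison. A cell that carries the reporter signal but lies outside the endodermis would be sorted with it.

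The ground tissue lies between the epidermis and the central cylinder, or stele, of the root. Its outer part, the cortex, is built of several cell layers in grasses and takes up, stores and conducts water and minerals, while its innermost layer, the endodermis, forms the Casparian strip, a wall barrier that makes uptake into the stele selective. In Arabidopsis the transcription factor SHORT-ROOT moves out of the stele and activates SCARECROW in the endodermis, and both are needed for the division that separates endodermis from cortex. The title of the series places it in work on the circuitry of the ground tissue in monocot roots.

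Values behave as read numbers per gene divided by a size factor per library and are called normalized units here. The table pairs no identifier with a gene name, and none of its 39510 identifiers matched the supplied reference of 49888 genes, so genes are given by identifier, their functions are not described, and the sorted layers could not be checked against SCARECROW or other marker genes. The depth was 34655095, 32624440 and 21978670 recovered reads in cortex libraries 1, 2 and 3, and 44992218, 50289026 and 40707719 in endodermis libraries 1, 2 and 3. A count of 0 therefore leaves room for up to 3 reads, worth 3.00 to 4.05 normalized units in the cortex and 1.81 to 2.15 in the endodermis, by counting error only. Nothing in the labels says that the libraries of a layer came from separate plants or sorts, so p-values measure the spread between these libraries, which may be technical.

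The 2 layers differed in 3238 of 25555 genes tested, 12.7% of them. A gene was called when its difference of mean log2(value + 1) was at least 1 in size with a limma adjusted p below 0.05. The cortex was higher in 1778 genes (6.96%) and the endodermis in 1460 (5.71%), with a median log2 difference of 3.62 and -3.35 among the called genes, beside -0.01 over all genes tested. Differences of at least 8 log2 units were found in 91 genes with the cortex higher and in 11 with the endodermis higher. Genes higher in the cortex took 18.5%, 18.1% and 15.1% of all normalized units in cortex libraries 1, 2 and 3, against 4.10%, 2.91% and 3.11% in endodermis libraries 1, 2 and 3. Genes higher in the endodermis took 1.87%, 1.97% and 3.01% in the cortex libraries, against 10.3%, 12.0% and 10.7% in the endodermis libraries. These shares follow from the choice of the genes and describe how much RNA they stand for. In bulk libraries fewer cells of a type and less RNA per cell cannot be told apart.

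Highly expressed genes were called more often. Of 498 genes with a mean of at least 10000 over the 6 libraries, 19.1% were called, against 10.4% of 9118 genes below 100. Of the calls, 1721 of the 1778 cortex genes and 1413 of the 1460 endodermis genes had all 3 libraries of one layer beyond all 3 of the other. Among all genes tested, every cortex library was above every endodermis library in 17.5%, and every endodermis library above every cortex library in 16.2%. Leaving out 1 library at a time, 1777 genes were called in all 6 fits, 1050 with the cortex higher and 727 with the endodermis higher.

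Replicates of each layer were more alike than libraries of different layers, and among the cortex libraries library 3 was the most like the endodermis. Across the genes tested, Spearman correlations lay between 0.915 and 0.940 within the cortex, between 0.916 and 0.979 within the endodermis, and between 0.763 and 0.869 between the layers, the highest being that of cortex library 3 with endodermis library 3. With each endodermis library cortex library 3 had the highest correlation of the cortex libraries, while its correlations of 0.940 and 0.918 with cortex libraries 1 and 2 were above the 0.915 between those. Within the endodermis, libraries 2 and 3 correlated at 0.979, and library 1 stood apart from them at 0.916 and 0.934. Genes share a library in these correlations and are not independent replicates. The median SD between replicates was 0.58 log2 units in the cortex and 0.35 in the endodermis over 16437 genes with a mean of at least 100. Genes higher in the endodermis had their highest cortex value in cortex library 3 for 56.9% of 1460 genes, against 35.2% of all genes tested. For 52.3% of the 1778 genes higher in the cortex, the highest endodermis value was in endodermis library 1, against 44.7% of all genes tested. Without cortex library 3, 1685 genes were higher in the cortex and 1535 in the endodermis.

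An independent view of each library came from genes that separate the dye-sorted epidermis from the dye-sorted stele, outer and inner tissues of the same B73 line. This comparison uses no cortex or endodermis library, although the spread per gene was estimated over all 24. It called 1417 genes higher in the epidermis (5.54% of genes tested) and 2391 higher in the stele (9.36%), in all 3808 genes (14.9%), or 2472 without stele library 2. With only these 2 tissues in the fit 7191 genes were called, and 7630 with the replicate number as a block as well, since same-numbered libraries of the 2 tissues deviated together. The level of a gene list in a library is given below as its median log2(value + 1) minus the median over all genes tested. The 1417 epidermis genes stood at 1.09, 1.46 and 1.17 in cortex libraries 1, 2 and 3, against -1.56, -1.25 and -1.18 in endodermis libraries 1, 2 and 3. The 2391 stele genes stood at -1.37, -1.41 and -0.25 in the cortex libraries, against 1.23, 1.35 and 1.24 in the endodermis libraries. Cortex and endodermis did not overlap on either list, with the cortex on the epidermis side and the endodermis on the stele side. Cortex library 3 was again the one nearest the endodermis on the stele genes, by more than 1 log2 unit from the other cortex libraries, and lay between them on the epidermis genes.

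**Figure D1:**
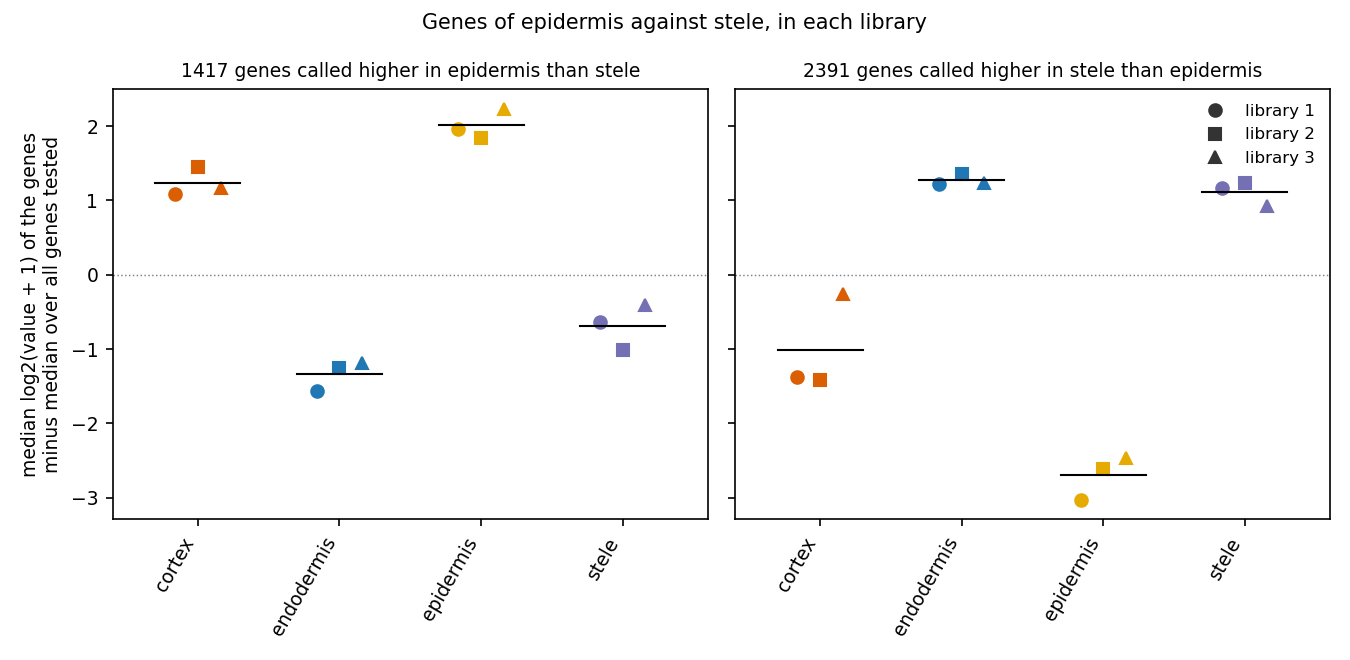
Median log2(value + 1) of genes called higher in epidermis than stele (left) and higher in stele than epidermis (right), minus the median over all genes tested, for each library of cortex, endodermis, epidermis and stele; symbols number the 3 libraries and black bars are their means. Cortex libraries lie between 1.09 and 1.46 on the left and endodermis libraries between -1.56 and -1.18, and on the right cortex library 3 (-0.25) lies apart from the other cortex libraries (-1.37 and -1.41).

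Taken gene by gene, the cortex shared its side with the epidermis and the endodermis with the stele. Of 1778 genes higher in the cortex, 778 (43.8%) were also called higher in the epidermis than the stele, where 5.54% of all genes were, and 39 (2.19%) were called higher in the stele. Of 1460 genes higher in the endodermis, 823 (56.4%) were also called higher in the stele, where 9.36% of all genes were, and 6 (0.411%) were called higher in the epidermis. The median log2 difference between epidermis and stele was 1.74 for the 1778 cortex genes and -2.50 for the 1460 endodermis genes, beside -0.06 over all genes. The reverse shares were 54.9% of the 1417 epidermis genes called higher in the cortex and 34.4% of the 2391 stele genes called higher in the endodermis. The scaling of the libraries moved the median over all genes in epidermis against stele by more than 0.1, to 0.10 with quantile normalization.

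**Figure D2:**
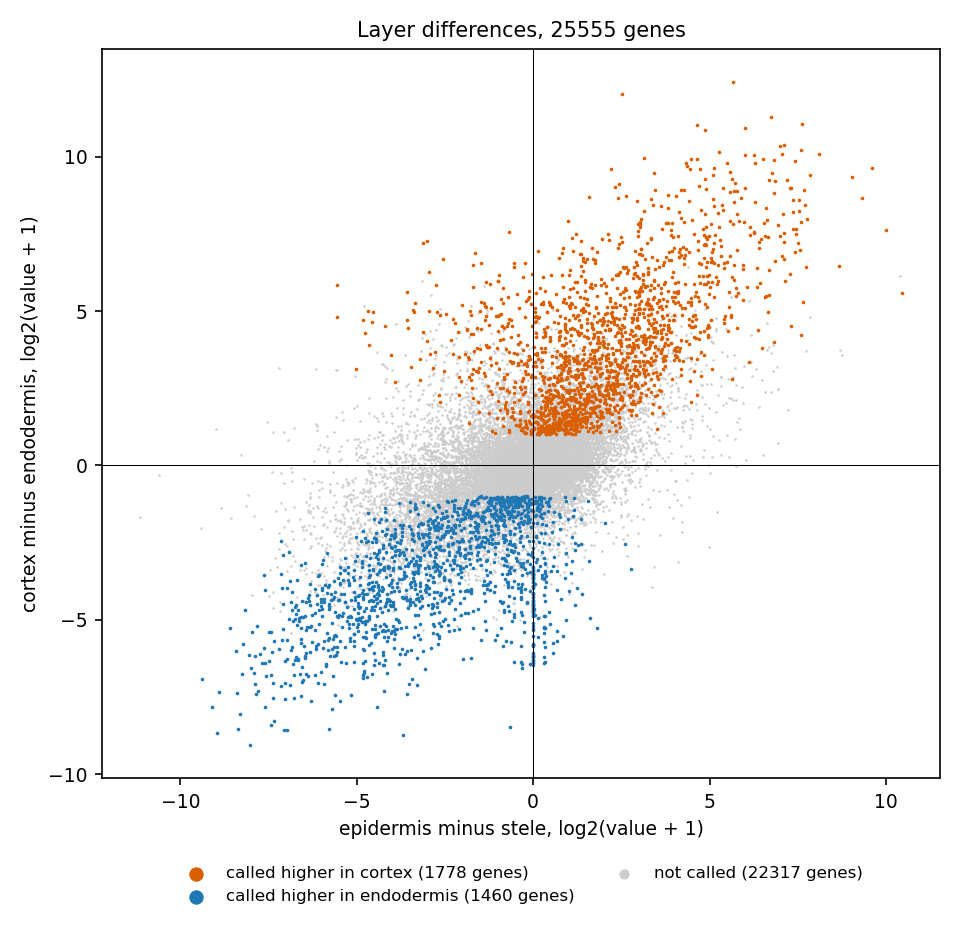
Difference of mean log2(value + 1) of each of 25555 genes between cortex and endodermis (vertical) and between epidermis and stele (horizontal), with genes called in the vertical comparison in colour. Most orange points lie right of 0 and most blue points left of it, and a column of blue points stands at 0 on the horizontal axis, genes of the endodermis with almost no reads in epidermis and stele.

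Across the remaining groups, the level of the genes higher in the cortex was close to that of the cortex in the epidermis and lower in all others. Relative to all genes tested it was 1.56 ± 0.26 in the cortex and -2.49 ± 0.17 in the endodermis, which follows from the choice of genes, against 1.61 ± 0.08 in the epidermis and -0.53 ± 0.44 in the stele (SD, n = 3 each). It was -0.37 ± 0.58 in the quiescent center, 0.91 ± 0.01 in the root cap, 0.74 ± 0.06 in unsorted protoplasts and 0.87 ± 0.18 in intact tips (SD, n = 3 each). Of these genes, 91.3% had an epidermis mean nearer to that of the cortex than to that of the endodermis. In the stele the share was 45.1%, in the quiescent center 32.3%, and in root cap, unsorted protoplasts and intact tips between 67.4% and 69.6%. Such shares were not counted over all genes tested.

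The genes higher in the endodermis had no second tissue at the same level. Their level was -2.38 ± 1.05 in the cortex and 1.49 ± 0.17 in the endodermis, again by choice of the genes, and 0.18 ± 0.21 in the stele, the next highest group (SD, n = 3 each). It was -0.55 ± 0.11 in unsorted protoplasts, -1.32 ± 0.32 in intact tips, -1.60 ± 0.18 in the quiescent center, -2.20 ± 0.15 in the root cap and -3.49 ± 0.28 in the epidermis (SD, n = 3 each). The stele mean lay nearer to that of the endodermis for 61.0% of the 1460 genes, and the epidermis mean for 5.21%. In quiescent center, root cap, unsorted protoplasts and intact tips the share was between 22.9% and 32.1%. Here too no share over all genes tested was counted.

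**Figure D3:**
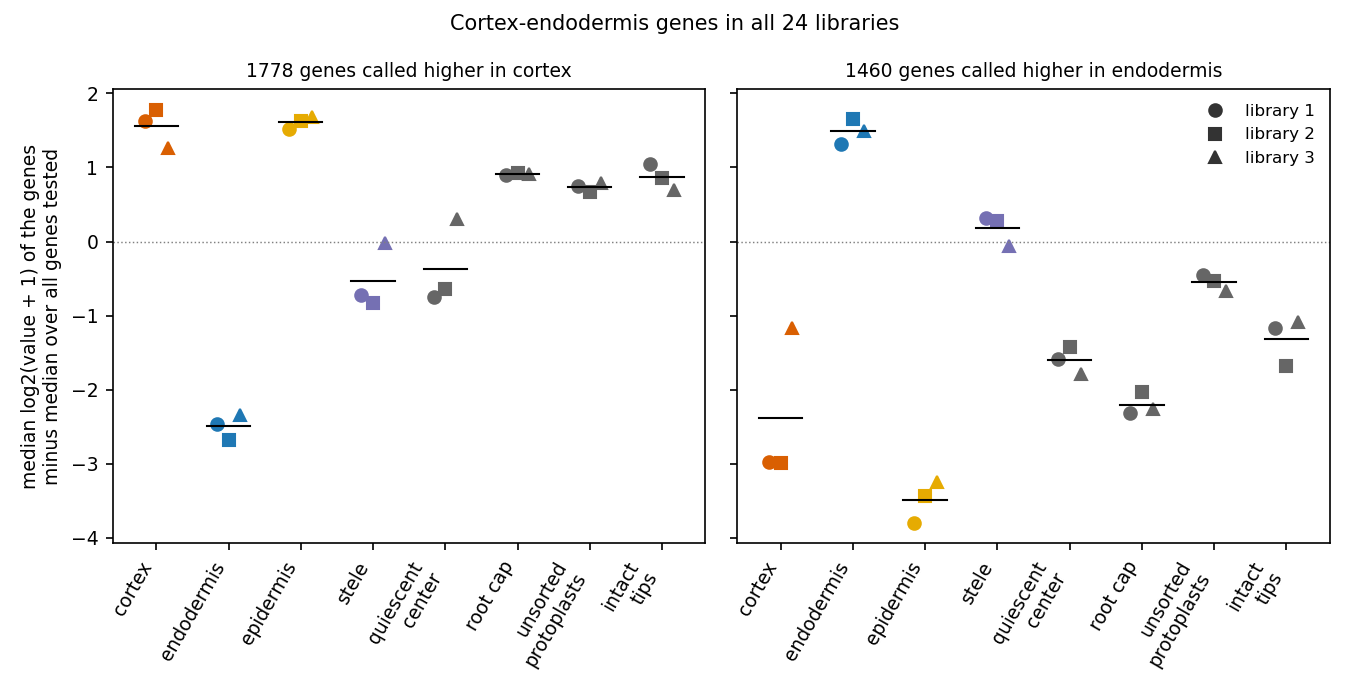
Median log2(value + 1) of the genes called higher in cortex (left) and higher in endodermis (right), minus the median over all genes tested, in each of 24 libraries; symbols number the libraries and black bars are group means. On the left the epidermis (1.61) lies with the cortex (1.56), while on the right the stele (0.18) lies between endodermis (1.49) and cortex (-2.38), and cortex library 3 lies above the other cortex libraries.

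The largest single differences on the log2(value + 1) scale were of genes with almost no reads in the endodermis, and their order depended on the pseudocount and the tool. With a pseudocount of 10 Zm00001d008523 had a larger log2 difference (10.23) than Zm00001d037041 (9.79) and Zm00001d036072 (9.66), and with edgeR Zm00001d041984 (14.25) and Zm00001d037655 (14.07) exceeded them (12.37 for Zm00001d037041, 10.78 for Zm00001d036072). Zm00001d037041 had 8818, 9087 and 13568 normalized units in cortex libraries 1, 2 and 3, against 5.67, 0 and 0 in endodermis libraries 1, 2 and 3. Every cortex library was more than 1000 times above every endodermis library. The log2 difference was 12.42 (SE 0.54, limma adjusted p = 2.39e-11). In the epidermis the gene had 10160.5, 12182 and 10161 units, within the range of the cortex libraries, and it reached 152, 167 and 372 in the stele. It was also high in the root cap, at 9162 ± 3404 (SD, n = 3) units, and at 0 in all quiescent center libraries.

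Zm00001d036072, next on the log2(value + 1) scale, had all 3 cortex libraries above all 3 epidermis libraries. It had 13837, 13058 and 8679.5 units in the cortex libraries, against 19.8, 0 and 0 in the endodermis libraries, a log2 difference of 12.04 (SE 0.96, limma adjusted p = 6.71e-08). In the epidermis it had 1286, 2369 and 1572 units and in the stele 84.9, 184 and 1593 units. No read of it was counted in any library of quiescent center or root cap.

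Zm00001d008523 was called higher both in cortex than endodermis and in epidermis than stele. It had 31843, 59818 and 16379 units in the cortex libraries, against 5.67, 2.41 and 83.1 in the endodermis libraries. The layers did not overlap, but the values within each layer were spread widely, and the log2 difference was 11.31 with an SE of 1.84 (limma adjusted p = 2.46e-04). In the epidermis its level was 132229.8 ± 29197 (SD, n = 3) units, and in the root cap it was 86299 ± 8594 (SD, n = 3) units.

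The most abundant gene called higher in the cortex was Zm00001d023994. It had 628239, 470517 and 352272 units in the cortex libraries, against 24876, 12464 and 18135 in the endodermis libraries, a log2 difference of 4.73 (SE 0.59, limma adjusted p = 1.30e-05). Outside the cortex it had 234166, 383236 and 278693 units in the epidermis libraries, 44669, 97459 and 109859.9 units in the stele libraries and 196978 ± 10026 (SD, n = 3) units in unsorted protoplasts. Zm00001d049239, the next in abundance, had 218442, 317374 and 229568 units in the cortex libraries, against 99513, 84122 and 72193 in the endodermis libraries, a smaller log2 difference of 1.57 (SE 0.30, limma adjusted p = 0.00106). Its levels in epidermis and stele differed by 0.19 log2 units (SE 0.30, limma adjusted p = 0.763).

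On the endodermis side, the largest difference on the log2(value + 1) scale was that of Zm00001d045905, but not with a pseudocount of 10, where it was -6.71 against -8.09 for Zm00001d048311 and -7.01 for Zm00001d038177. It was not the largest with edgeR, DESeq2 or quantile normalization either. It had 0, 0 and 25.7 units in the cortex libraries, against 2220.2, 1385 and 1309 in the endodermis libraries, a log2 difference of -9.06 (SE 1.01, limma adjusted p = 3.28e-06). The single cortex value above 0 was in cortex library 3. The gene was also read in the stele, with 219, 513 and 161 units, and at lower levels in unsorted protoplasts, with 51.6, 13.5 and 17.9 units. It was at 0 in all libraries of epidermis, quiescent center and root cap. Zm00001d048311 showed the same order of tissues at higher levels. It had 25.5, 8 and 32.4 units in the cortex libraries and 7089, 9575 and 8079 in the endodermis libraries (log2 difference -8.68, SE 0.88, limma adjusted p = 1.08e-06), with 528, 926 and 525 in the stele libraries.

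Zm00001d038177 had 1.06, 2 and 12.2 units in the cortex libraries, against 1244, 2673 and 1879.7 in the endodermis libraries. Its log2 difference was -8.73 (SE 1.61, limma adjusted p = 7.96e-04), and its stele level was 114 ± 51 (SD, n = 3) units. All 3 endodermis libraries were more than 100 times above cortex library 3, the highest of the cortex.

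Zm00001d024281, the most abundant gene called higher in the endodermis by mean value, varied widely among the cortex libraries. It had 447, 1578 and 21712 units in cortex libraries 1, 2 and 3, against 154360.4, 162438 and 133537 in the endodermis libraries, a log2 difference of -5.91 (SE 1.35, limma adjusted p = 0.00507). Cortex library 3 held more than 10 times the units of either other cortex library. In the stele the gene had 39581, 60717 and 26215 units and in the epidermis 52.3, 271 and 547. Zm00001d031344, the next in abundance, had 26073, 30549 and 33879 units in the cortex libraries, against 101970.5, 157629 and 118387 in the endodermis libraries (log2 difference -2.05, SE 0.40, limma adjusted p = 0.00133). Its cortex libraries lay within a narrow range, all below the endodermis libraries, and the epidermis had 4871 ± 3348 (SD, n = 3) units.

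**Figure D4:**
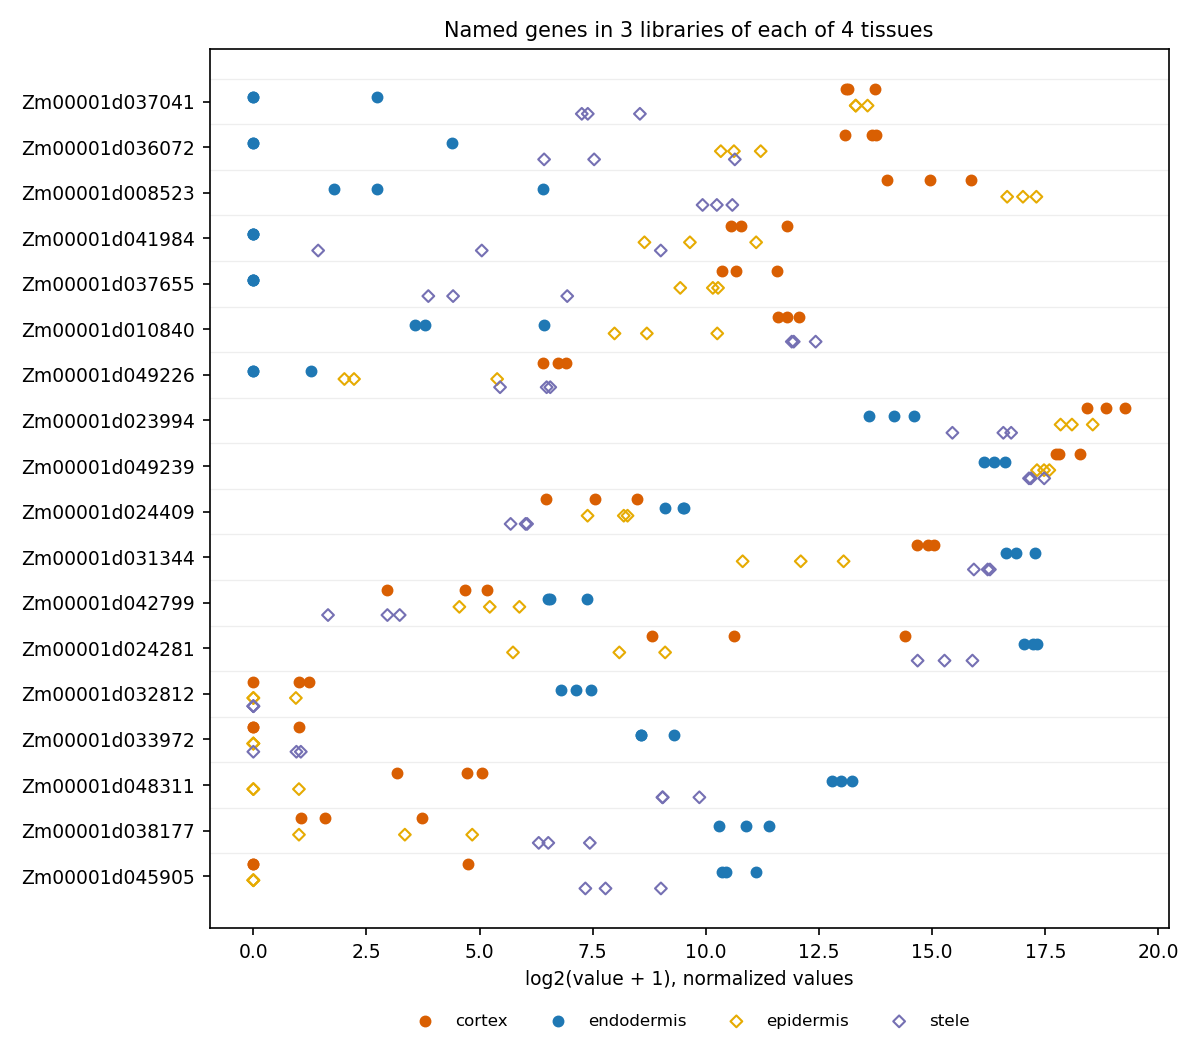
Normalized values of the 18 named genes as log2(value + 1) in 3 libraries each of cortex, endodermis (filled circles), epidermis and stele (open diamonds), ordered by the difference between cortex and endodermis. In every row the cortex and endodermis circles do not overlap, which was a condition of the choice, while the diamonds show which genes follow the epidermis or the stele.

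For some genes the difference between cortex and endodermis was unlike that between epidermis and stele. The difference between the 2 contrasts was tested for every gene and called for 479 genes (1.87%), 339 of them (1.33%) with a positive and 140 (0.548%) with a negative value, beside a median of 0.13 over all genes. Quantile normalization moved that median to -0.08 and gave 402 positive and 269 negative calls. Not all of the 479 separated the layers: 162 of the positive and 27 of the negative were not called between cortex and endodermis. A further 11 positive genes were called higher in the endodermis and 2 negative genes higher in the cortex. The count was 257 with edgeR, 1170 with DESeq2, 1833 with weights per group, and as low as 288, without epidermis library 1, when 1 library was left out. Zm00001d010840 had 4241, 3088 and 3559.9 units in the cortex libraries, against 84.4, 10.9 and 12.9 in the endodermis libraries, while the epidermis had 252, 413 and 1217 and the stele 3931, 3815 and 5497. It was thus high in dye-sorted cortex and stele and low in the endodermis, and the 2 contrasts differed by 10.33 log2 units (SE 0.86, limma adjusted p = 3.71e-06). Cortex against endodermis crosses line and sorting method, while epidermis against stele does not. Line, sort and layer therefore cannot be told apart in the difference of contrasts. Unsorted protoplasts and intact tips held Zm00001d010840 at 7904 ± 1215 (SD, n = 3) and 7432 ± 3409 (SD, n = 3) units, and all libraries of quiescent center and root cap were at 0. Zm00001d049226 had the same pattern at low levels, with 84.1, 106 and 119 units in the cortex libraries and 1.42, 0 and 0 in the endodermis libraries (difference of contrasts 9.22, SE 1.11, limma adjusted p = 7.99e-05). Its fitted log2 difference between cortex and endodermis was 6.26 with a pseudocount of 1 and 3.42 with 10.

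Zm00001d024409 went the other way, being lower in cortex than endodermis but higher in epidermis than stele. It had 186, 88 and 354 units in the cortex libraries, against 547, 726 and 723 in the endodermis libraries, and 166, 290.1 and 307 in the epidermis libraries, against 63.7, 65.2 and 50.4 in the stele libraries. The contrasts differed by -3.90 log2 units (SE 0.76, limma adjusted p = 0.00773). Zm00001d042799 differed in the same sense by -5.15 (SE 1.10, limma adjusted p = 0.0152), with 24.5, 35 and 6.75 units in the cortex libraries, against 165, 90.6 and 93.1 in the endodermis libraries. Their calls between cortex and endodermis were the weakest of the named genes, and the limma adjusted p was 0.131 for Zm00001d024409 without cortex library 2 and 0.154 for Zm00001d042799 without cortex library 3. Over 17 alternatives the call was lost 5 times for Zm00001d024409 and 7 times for Zm00001d042799.

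Some genes higher in the endodermis were close to unread in the epidermis and the stele. Of the 1460 genes higher in the endodermis, 143 (9.79%) had at most 3 reads in each of the 6 epidermis and stele libraries, against 0 of the 1778 genes higher in the cortex. Of these 143, 126 also had at most 3 reads in each of the 6 libraries of unsorted protoplasts and intact tips, tissues that hold endodermis cells. In 111 of the 143 any quiescent center library had more than 3 reads, and in 53 all 3 of them had. The quiescent center libraries, like those of the endodermis, came from the B73/Hi-II background. The share of all genes tested that met these conditions was not counted, so these counts have no background beside them. They are therefore not read as a trait of the genes higher in the endodermis. The 126 could pass the filter on level only through the remaining groups, the endodermis among them, so their near absence is partly built in. The levels of the 143 were low, with a median endodermis mean of 24.2 units, and 5 genes had a mean of at least 100. Line, sort and layer cannot be told apart for these genes.

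A list of genes with at least 10 units in every endodermis library and at most 3 reads in every one of the 18 wild-type libraries, the cortex included, held 80 genes. These genes passed the filter on level by their endodermis values alone, as the rule of the list requires. No list in the opposite direction is given beside it. All 80 were called, which the choice makes likely, and they were 5.48% of the genes higher in the endodermis, leaving 1380 without them. In 23 of the 80 every quiescent center library had more than 3 reads, and in 25 none had. Zm00001d033972 was the highest, with 0, 1 and 0 units in the cortex libraries, against 627, 379 and 379.5 in the endodermis libraries. With 1 read in the cortex, the fitted log2 difference depended on the pseudocount and the tool, at -8.48 with a pseudocount of 1 (SE 0.75, limma adjusted p = 1.93e-07), -5.47 with 10 and -10.16 with DESeq2. In the quiescent center it had 50.9, 45.8 and 305 units, and no wild-type library held more than 2.58. Zm00001d032812 had 0, 1 and 1.35 units in the cortex libraries, against 111, 139 and 175 in the endodermis libraries, and 241, 40.3 and 0 in the quiescent center libraries.

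The comparison with unsorted material was made for every sorted tissue. Of 19836 genes with at least 10 units in every cortex library, 26 (0.131%) had at most 3 reads in each of the 6 libraries of unsorted protoplasts and intact tips, and of 19803 such genes in the endodermis 176 (0.889%) did. The share was 0.193% in the epidermis, 0.378% in the stele and 0.566% in the quiescent center. The endodermis libraries were the deepest of the series, which lowers the value of 1 read in them, and the part of depth in these counts was not tested.

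Genes read in the cortex and not at all in the endodermis numbered 25, counted as at least 100 units in every cortex library and 0 reads in every endodermis library, and no gene met the reverse condition. Against a floor of 3 reads in each endodermis library, they were at least 62.1-fold to 1040-fold higher in the cortex, as a ratio of geometric means. In the epidermis 22 of the 25 had a mean of at least 100, and 13 a mean above that of the cortex, while in the stele 1 had a mean of at least 100. In the quiescent center 11 were at 0 in all 3 libraries. Zm00001d037655 had 1618, 3062 and 1306 units in the cortex libraries, against 0 in all endodermis libraries, a difference of at least 921-fold, with 1138, 690.3 and 1232 in the epidermis libraries and 13.6, 20.3 and 121 in the stele libraries. The condition on every endodermis library was decided by endodermis library 1, without which 73 genes met it, and the reverse condition held for 8 genes without cortex library 3. A limit of 3 reads in place of 0 gave 51 genes for the cortex and 8 for the endodermis.

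Genes of the root cap were read in the cortex libraries more than in the endodermis libraries. Zm00001d041984, the gene with the largest bound of the 25, had 1753, 1499 and 3546 units in the cortex libraries, against 0 in all endodermis libraries, at least 1040-fold higher. In the dissected root cap it had 186949.6, 466985 and 215233 units, and in unsorted protoplasts without cap 1.05, 0.963 and 0. A list of 51 such genes was drawn after this was seen, from the root cap, unsorted protoplast and intact tip libraries alone, with at least 1000 units in every cap library and a lowest cap value more than 100 times the highest value without cap. In cortex libraries 1, 2 and 3, 34, 36 and 40 of the 51 had more than 3 reads and their summed level was 7852, 6978 and 11014 units (the endodermis libraries had 15, 9 and 7 genes and 3807, 296 and 498 units). In the cortex 8, 13 and 8 of the genes were at 0, against 25, 39 and 38 in the endodermis. In epidermis libraries 27 to 38 of the list had more than 3 reads, and in stele libraries 17 to 40, with summed levels of 3312 to 12933 units in the epidermis and 1069.9 to 2369 in the stele. In quiescent center libraries 1, 2 and 3 the list had 12, 25 and 7 such genes and 1501, 13643 and 336 units, library 2 being above every cortex library. Their summed level in the root cap was 866878 to 2216250 units. Intact tips without cap, used to draw the list, had 23, 12 and 7 of the 51 above 3 reads. Of the 51, 23 (45.1%) were called higher in the cortex, against 6.96% of all genes, with a median log2 difference of 3.20. By limma 0 were called higher in the endodermis and 1 at an unadjusted p below 0.05, beside 1 called by edgeR and 1 by DESeq2. Of the list, 4 were among the 25 cortex genes above. Without the list 1755 genes were higher in the cortex. The part of cap cells in the calls, on the list or off it, was not tested.

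**Figure D5:**
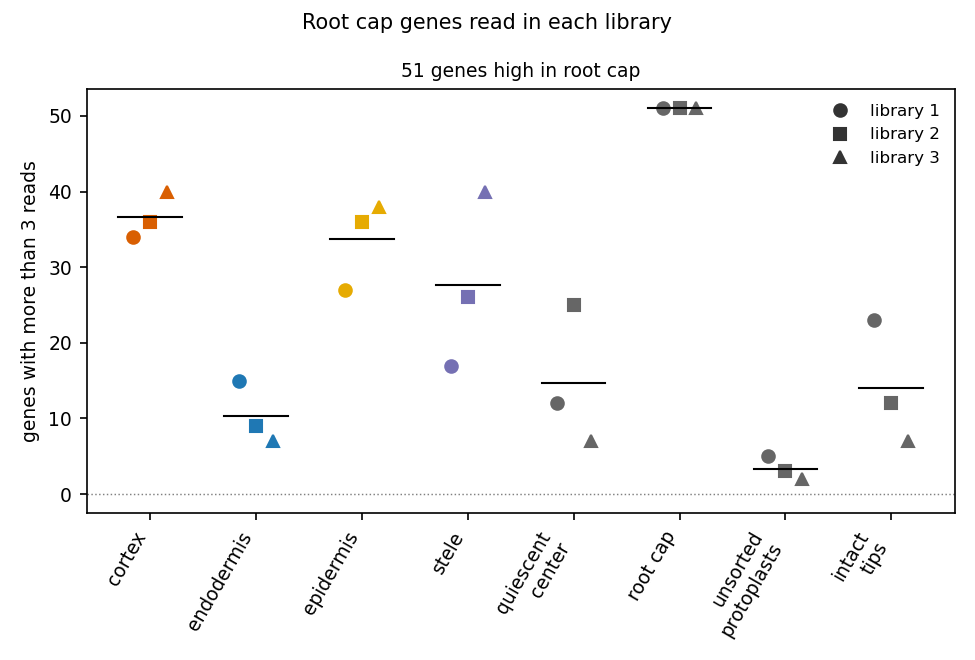
Number of 51 genes high in the root cap that had more than 3 reads in each library; symbols number the libraries and black bars are group means. The cortex libraries lie between 34 and 40 genes and the endodermis libraries between 7 and 15. Unsorted protoplasts had 2 to 5 and intact tips 7 to 23, both without cap. Low levels in these 2 groups are part of the rule of the list.

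Other contrasts without cortex or endodermis libraries gave the position of the called genes. The quiescent center and unsorted protoplasts differ in tissue, sorting and line, which cannot be told apart there. Of genes higher in the cortex, 722 (40.6%) were called lower in the quiescent center than in unsorted protoplasts, where 20% of all genes were, and 180 (10.1%) were called higher, where 16.3% were. Of genes higher in the endodermis, 393 (26.9%) were lower and 237 (16.2%) higher in that contrast. Set against these, the protoplast contrast differed little from its background for genes higher in the cortex, of which 149 (8.38%) were called higher and 158 (8.89%) lower in unsorted protoplasts than intact tips, where 9.27% and 8.58% of all genes were. Among genes higher in the endodermis 233 (15.96%) were higher and 88 (6.03%) lower in unsorted protoplasts. In the root cap against intact tips, 467 (26.3%) of the genes higher in the cortex and 270 (18.5%) of those higher in the endodermis were called higher, where 18.4% of all genes were. Lower in the root cap were 341 (19.2%) and 374 (25.6%) of the same lists, where 14.2% of all genes were, and that contrast called 32.6% of genes in either direction.

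The direct comparisons with the dye-sorted neighbours share libraries with the main one and are given side by side. Cortex and stele, both dye-sorted from B73, differed in 1155 genes (4.52%), 574 higher in the cortex (2.25%) and 581 lower (2.27%). The median log2 difference between cortex and stele was 1.77 for the genes called higher in the cortex than the endodermis and -1.64 for those called higher in the endodermis, beside -0.08 over all genes. Cortex and epidermis differed in 260 genes (1.02%), 186 higher in the cortex (0.728%) and 74 lower (0.29%), with medians of -0.02 and 0.57 for the same lists, beside 0.05 over all genes. Endodermis and stele differed in 727 genes (2.84%), 306 higher in the endodermis (1.2%) and 421 lower (1.65%), with medians of -1.71 and 1.24, beside -0.12. Endodermis and epidermis differed in 5441 genes (21.3%), 2834 higher in the endodermis (11.1%) and 2607 lower (10.2%).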

How the data were processed

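RNA was sequenced in 24 libraries of maize root tip tissue, 3 in each of 8 groups, from plants kept at 26 °C under days of 12 h light. Reads were processed with Trimmomatic, kallisto 0.43, which estimates counts per transcript, and DESeq2, per the submitters' processing notes (build and annotation: not given in the sources used here). In the authors' deposited table each gene has a normalized signal, and its values behave as read numbers divided by a size factor per library. All values were whole multiples of 1 read per library within a relative tolerance of 1e-06, 100% of them within 0.01 of a whole read, so estimated counts had been rounded. The reads recovered in this way gave the depth, 21978670 to 50289026 per library, and the input of the count tests. The 8 columns of group averages were not used. Identifiers with near-identical copies in the genome are uncertain, since reads may be split between them. RNA came from a kit for small samples and libraries from an amplifying kit, per the labels.

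The 25555 genes with at least 10 normalized units in at least 3 libraries were tested with limma 3.58.1 (R 4.3.3) on log2(value + 1), with group means over all 24 libraries, 1 spread per gene and a trend with level, and Benjamini-Hochberg adjustment over all genes tested. A fold change on this scale understates the change of low genes. Calls needed an adjusted p below 0.05 and a log2 difference of at least 1 in size. The difference between the cortex-endodermis and epidermis-stele contrasts was tested in the same fit. Alternatives were other pseudocounts, filters and scalings, other sets of libraries, weights per group, edgeR 4.0.16 and DESeq2 1.42.0 on recovered reads, the replicate number as a block, and each library left out in turn. The fit was tested on simulated data.

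Groups and comparisons, members and lists were chosen with earlier results of these data known. Named genes had to be called, average at least 100 units in the layer where they were higher, and have all 3 libraries of it above those of the other. Of these, 2 in each direction with the largest difference were named overall and in each of 3 classes. The classes were the same direction in epidermis against stele, the opposite direction there, and difference of contrasts called. A further class, single-sided, gave 2 genes higher in the cortex, since no gene met its condition for the endodermis. The 2 most abundant in each direction were added, 18 genes in all. Planned lists of named genes and cell type markers are not analysed here, since identifiers had no names. Gene sequences are not shown for the same reason. No pair of libraries within a group was identical or agreed within sampling noise, and pairs across groups were not checked in this way. Replicate numbers were taken from the titles; the descriptions of cortex, epidermis and stele libraries 3 give the number 2 instead. Deviations from the group means of same-numbered libraries correlated at 0.166, 0.334 and 0.351 between epidermis and stele, each over 0.1. The numbers were therefore tried as a block for these tissues, on a hint from the data and not from the labels. Same-numbered libraries of other tissues reached larger values of either sign, for example -0.547 for stele and cortex libraries 2, so pairing is not established. Between cortex and endodermis they correlated at 0.472, 0.277 and -0.012, the first being the highest of all 84 pairs. Over all 84 pairs the mean was -0.0025, with 14 over 0.1, and the numbers were not taken to pair the layers. That mean does not decide whether these 2 layers are paired. A block with only cortex and endodermis in the fit was not run. Intervals and floors of 3 reads cover counting error only.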

Additional observations from a re-analysis of the deposited data

Results flagged for a closer look

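For 8 of the 18 named genes the difference between cortex and endodermis was unlike that between epidermis and stele, by a limma test of the difference of the 2 contrasts itself. The difference was 6.75 log2 units for Zm00001d037041, 9.52 for Zm00001d036072, 10.33 for Zm00001d010840 and 9.22 for Zm00001d049226, with cortex above endodermis in each. Epidermis was also above stele, by less, for Zm00001d037041 and in the estimate for Zm00001d036072, and was below stele for Zm00001d010840 and Zm00001d049226. The difference of contrasts was -5.15 for Zm00001d042799, -3.90 for Zm00001d024409, -7.81 for Zm00001d033972 and -6.70 for Zm00001d032812, with cortex below endodermis in each. Several of the 18 were named because this test called them, so their number says nothing about other genes. Line, sort and layer cannot be told apart in these differences. Zm00001d033972 and Zm00001d032812 had at most 3 reads in every wild-type library.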

How the results depend on the processing

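The count of genes called between cortex and endodermis stayed within 1.5 times of 3238 under each alternative run, and was 2275 to 3220 with 1 library left out. It was highest, at 4401, without the quiescent center, whose replicates were the most spread (median SD 0.75 log2 units). In all 17 alternatives that refitted the comparison 1377 genes were called (918 higher in the cortex, 459 higher in the endodermis). With the replicate number as a block over all groups, 3098 genes were called between cortex and endodermis, 3665 between epidermis and stele and 443 in the difference of contrasts, beside 479 without it. With the block and only epidermis and stele in the fit, added after the correlations of same-numbered libraries were seen, 7630 were called between epidermis and stele. The shares of called genes on the epidermis and stele sides were 40.7% to 52.8% and 46.4% to 60.8% with 1 library left out.

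Other counts moved. Between epidermis and stele 7191 genes were called with only the groups compared in the fit and 7568 with weights per group, against 3808, and 2472 to 3141 with 1 library left out, the lowest without stele library 2. The difference of contrasts gave 1376 genes with only the groups compared, 1238 without the quiescent center, 1833 with weights per group, 257 with edgeR (225 positive, 32 negative) and 1170 with DESeq2 (932 positive, 238 negative). Leaving out 1 library gave 288 to 711, with 308 without endodermis library 2, 316 without endodermis library 3, 288 without epidermis library 1, 310 without stele library 2 and 293 without stele library 3. Genes in cortex with no read in the endodermis numbered 52 with a minimum of 30 units and 51 with up to 3 reads allowed, and the reverse 24 and 8. With 1 library left out they numbered 26 to 73, and the reverse 0 to 8, the highest without endodermis library 1 and without cortex library 3. The cause of these moves was not tested, apart from the conditions that were loosened. Among values of single genes 294 kept direction and call and 12 lost the call, 7 of Zm00001d042799 and 5 of Zm00001d024409. Fitted log2 differences of genes near 0 in one layer ranged widely, for example from 7.72 to 28.57 for Zm00001d041984, 3.42 to 7.83 for Zm00001d049226, -10.16 to -5.47 for Zm00001d033972 and -7.52 to -3.79 for Zm00001d032812.

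Medians of the planned gene lists were not run, since identifiers had no names. Depth limits genes near 3 reads, and 3 libraries per layer limit every p-value.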
